A study of Mus musculus with 18 samples.

Results

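Goblet cell mucus mRNAs are described here as 7 genes, Fcgbp, Muc2, Clca1, Zg16, Agr2, Tff3 and Spink4, out of 21774 RefSeq genes with an mRNA. Their members are the cytosines called as 5-methylcytosine (m5C) in exons, on the same strand, of the mm10 RefSeq transcripts of these genes. They hold 198 of the 25890 distinct sites of the 9 libraries, and all 7 genes carry at least 1 site. The genes were chosen with their numbers of sites over the groups known, so that these numbers are a description and not a test. The RNA is labelled as that of primary neurons from the cerebral cortex of C57BL/6 mice at fetal day 18, without any transgene or deletion in the labels. Control neurons were not deprived. The OGD/R 1.5 h and OGD/R 3 h neurons were kept in glucose-free DMEM under hypoxia for 1.5 h or 3 h (oxygen-glucose deprivation, OGD) and then returned to normal medium for 24 h (reoxygenation, R). Each group has 3 bisulfite libraries. How many animals or cultures were pooled in a library is not given in the sources used here.

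Goblet cells line the intestinal and airway epithelium and secrete mucus. Muc2 is the gel-forming mucin of intestinal mucus, a very long protein that assembles through von Willebrand D domains at its ends and carries O-glycans on a central region rich in proline, threonine and serine. Fcgbp, the IgG Fc-binding protein, is made mostly of repeated von Willebrand D domains and is found in the same mucus. Clca1 is a secreted metalloprotease that cuts Muc2. Zg16 is a lectin of the mucus that binds Gram-positive bacteria. Tff3 is a small trefoil peptide of the mucus and Spink4 belongs to the Kazal-type protease inhibitors. Agr2 is a protein disulfide isomerase of the endoplasmic reticulum that is needed to fold Muc2. In mRNA bisulfite sequencing unmethylated cytosines are read as T, and a cytosine that stays C in enough reads is called as m5C.

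The Fcgbp mRNA (NM_001122603.1, chr7:28071236-28120864, plus strand, 20 exons) carried the sites that recurred most. Of the 198 sites, 3 were called in all 9 libraries, as were 104 sites of all other mRNAs, where the series holds 18281 distinct mRNA sites. The 3 mucus sites all lay in the coding sequence of Fcgbp, at chr7:28085096 in exon 4 and at chr7:28086672 and chr7:28086689 in exon 5. They are shown with the site at chr7:28089768 in exon 6, with scores of 957, 558 and 1000 in OGD/R 3 h. It is 1 of 3 Fcgbp sites that reached the score cap of 1000 in an OGD/R 3 h library. The others, at chr7:28093489 in exon 8 (1000, 902 and 863) and chr7:28120473 in exon 19 (1000, 853 and 545), had higher sums of scores. Sequences are from the RefSeq GRCm38.p6 genome, which is mm10, read along the mRNA strand from 5′ to 3′, and the called cytosine is in capitals.
Fcgbp chr7:28085096: agtgtgcgggCtgtgcggcaa
Fcgbp chr7:28086672: gtgtggtggcCcatggggtag
Fcgbp chr7:28086689: gtagaagtggCtgtgcgaagg
Fcgbp chr7:28089768: tgtgtgggctCtgtgggaact

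A stretch like that around the first of these sites returned along the Fcgbp mRNA. The pattern of TGNGG, any base, CT, any base and TGNGG again (N is any base), chosen after the sites were seen and searched on the mRNA strand only, was found 6 times in Fcgbp, and 5 of its 6 copies held a called cytosine at the C that is in capitals below. At mRNA positions 599, 1775, 2936, 4199, 5387 and 6506 this cytosine lay in the following stretches.
Fcgbp mRNA position 599: agtgtgcgggCtgtgcggcaa
Fcgbp mRNA position 1775: tgtgtgtgggCtctgtgggaa
Fcgbp mRNA position 2936: gatgtgtggtCtgtgcgggga
Fcgbp mRNA position 4199: agtgtgtgggCtctgtggaaa
Fcgbp mRNA position 5387: cctctgtggcCtgtgcggcaa
Fcgbp mRNA position 6506: tctctgtggcCtctgtgggaa
The copy at position 599 was called in all 9 libraries. The copies at 1775, 2936 and 4199 were called in all 3 OGD/R 3 h libraries and in no other library, the copy at 6506 in 1 OGD/R 3 h library, and the copy at 5387 in none. The pattern occurs in 412 of the 21774 genes (1.89%), a share that is not matched for length. Muc2 holds it 2 times without a site in either copy, and the other 5 mRNAs do not hold it.

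Every OGD/R 3 h library listed more sites on the mucus mRNAs than any other library. Control replicates 1, 2 and 3 held 23, 21 and 16 sites on the 7 mRNAs. The replicates of OGD/R 1.5 h had 15, 16 and 14, those of OGD/R 3 h 103, 100 and 102. Over all RNAs a library listed 5907 to 6254 sites in control, 5423 to 5745 after 1.5 h and 7266 to 7772 after 3 h of deprivation. The mucus sites were 0.415% to 0.581% of a library's mRNA sites in control, 0.370% to 0.444% in OGD/R 1.5 h and 1.94% to 2.13% in OGD/R 3 h. OGD/R 3 h libraries therefore had the highest shares, with no overlap with the other groups, while the ranges of control and OGD/R 1.5 h overlapped. The mean went from 20 ± 3.61 sites in control to 102 ± 1.53 in OGD/R 3 h (SD, 3 libraries), which is 5.08-fold, while all mRNA sites went from 4007 ± 178 to 4950 ± 305, which is 1.24-fold. In OGD/R 1.5 h the mean was 15 ± 1.00.

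No p-value is given for these differences. Part of the per-site coverage that accompanies the study was read for control and OGD/R 3 h. In it each replicate pair of a group varied less than sampling noise gives on average. Whether it was less than such noise allows was not tested, and OGD/R 1.5 h was not covered. The paper calls the replicates sequencing pools, so the 3 libraries of a group were not taken as independent samples for a test. The exact permutation test of 3 against 3 could not go below 0.1. The SDs describe the spread between sequencing libraries. A listed site had to reach a coverage of 10 reads and a level of 0.1, and read depth is unknown, so more sites can mean more reads of an mRNA or more methylation of it, and these cannot be told apart. Likewise fewer cells of a type and less RNA per cell cannot be told apart in these bulk samples.

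**Figure D1:**
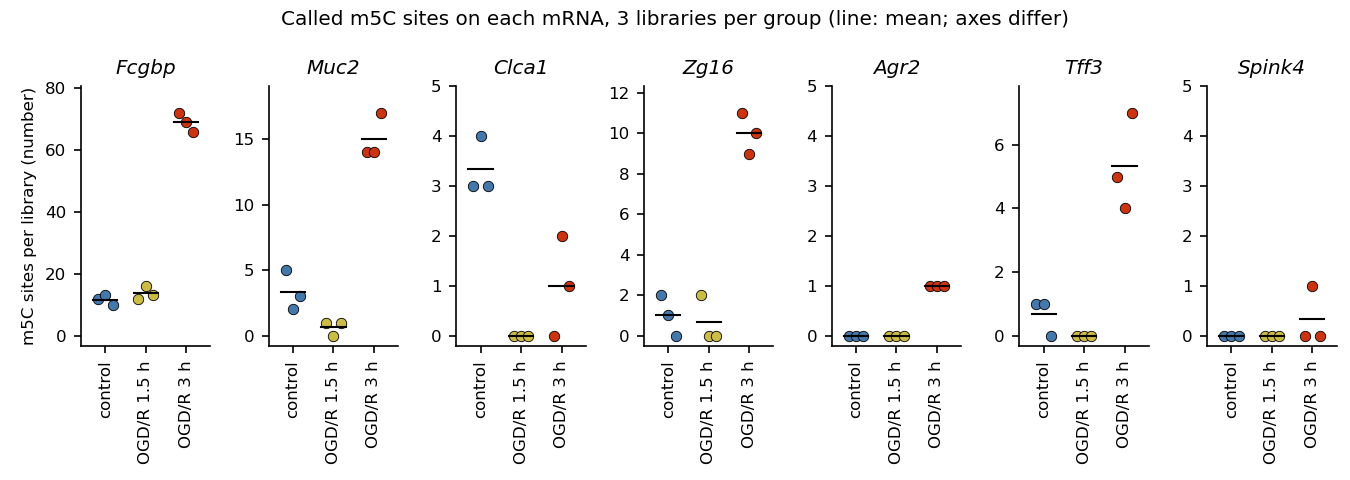
Number of called m5C sites on each of the 7 mRNAs (vertical axes, which differ between panels) in the 3 libraries of each group (points), with the mean of the group as a line. Fcgbp, Muc2, Zg16, Agr2 and Tff3 had more sites in every OGD/R 3 h library than in any control library, and Clca1 had fewer.

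Of the 7 genes, 5 had more sites in every OGD/R 3 h library than in any control library (Fcgbp, Muc2, Zg16, Agr2 and Tff3). With a score of at least 10 Agr2 no longer did. Over the 2288 genes with a site in either group, 18.2% did so. Clca1 had fewer in every OGD/R 3 h library, as had 18.8% of all these genes, and Spink4 overlapped. Against OGD/R 1.5 h, which shares its OGD/R 3 h libraries with the former comparison, the same 5 genes had more sites in every OGD/R 3 h library (19.6% of 2204 genes). Between OGD/R 1.5 h and control, Muc2 and Clca1 had fewer sites in every OGD/R 1.5 h library (15.3% of 2352 genes) and no member had more (8.42%). Since the members were chosen by these numbers, nothing is read from their shares.

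Fcgbp held most of the sites in every library. Control replicates listed 12, 13 and 10 sites on it, OGD/R 1.5 h replicates 12, 16 and 13, and OGD/R 3 h replicates 72, 69 and 66. Control and OGD/R 1.5 h overlapped, and OGD/R 3 h lay far above both, at 69.0 ± 3.00 against 11.7 ± 1.53 in control, or 5.91-fold. Among all genes of a library, Fcgbp was second by number of sites in all 3 OGD/R 3 h libraries, between rank 30 and 46 in control and between 16 and 37 in OGD/R 1.5 h. It took 64.7% to 69.9% of the mucus sites in OGD/R 3 h, 52.2% to 62.5% in control and 80.0% to 100% in OGD/R 1.5 h. The mRNA is long, with 7930 nt and 2245 cytosines. Per 1000 cytosines, the union of the 3 libraries held 8.46 sites in control, 10.2 in OGD/R 1.5 h and 44.1 in OGD/R 3 h.

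Muc2 (NM_023566.4, chr7:141690340-141754691, plus strand, 48 exons) carried 5, 2 and 3 sites in the control replicates. OGD/R 1.5 h had 1, 0 and 1, and OGD/R 3 h had 14, 14 and 17. OGD/R 1.5 h libraries were all below control and OGD/R 3 h libraries all above it, but with sites called in at least 2 or in all 3 libraries of a group OGD/R 1.5 h and control no longer separated. The mean of 15 ± 1.73 in OGD/R 3 h was 4.50-fold that of 3.33 ± 1.53 in control. Its 2054 cytosines are nearly as many as those of Fcgbp, but the OGD/R 3 h union held 14.6 sites per 1000 of them, against 44.1 on Fcgbp. The alignment of this RefSeq mRNA to mm10 is partial, so that part of the mRNA is not placed on the genome.

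Zg16 (NM_026918.3, chr7:127050156-127052675, minus strand) had 2, 1 and 0 sites in the control replicates. OGD/R 1.5 h had 2, 0 and 0, and OGD/R 3 h had 11, 9 and 10. Control and OGD/R 1.5 h overlapped at 0 to 2 sites and OGD/R 3 h stood apart. For its 173 cytosines this was the highest density of the 7 mRNAs in OGD/R 3 h, 86.7 sites per 1000 cytosines in the union, followed by Tff3 with 55.6 and Fcgbp with 44.1.

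Tff3 (NM_011575.2, chr17:31125306-31129611, minus strand) had 1, 1 and 0 sites in control, none in any OGD/R 1.5 h library and 5, 4 and 7 in OGD/R 3 h. The sites of control and of OGD/R 3 h were different cytosines. In control they lay at mRNA positions 393 and 401 in the 3′ UTR, with 1 library each, and 6 of the 7 OGD/R 3 h sites lay within 100 nt of the start codon.

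Clca1 (NM_017474.2, chr3:145004537-145032776, minus strand) went the other way, with 3, 4 and 3 sites in control, none in OGD/R 1.5 h and 0, 2 and 1 in OGD/R 3 h. No cytosine of Clca1 was called in both control and OGD/R 3 h. The call rests on low scores in part. With a score of at least 10, control replicates and OGD/R 3 h replicates overlapped.

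Agr2 and Spink4 carried 1 site each. The Agr2 site at chr12:35995651 was called in all 3 OGD/R 3 h libraries and in no other, with scores of 1, 1 and 10 on a scale of 0 to 1000. The Spink4 site at chr4:40931304 was called in OGD/R 3 h replicate 2 alone, with a score of 235. Among the 7 mRNAs only Fcgbp had sites in all 9 libraries.

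**Figure D2:**
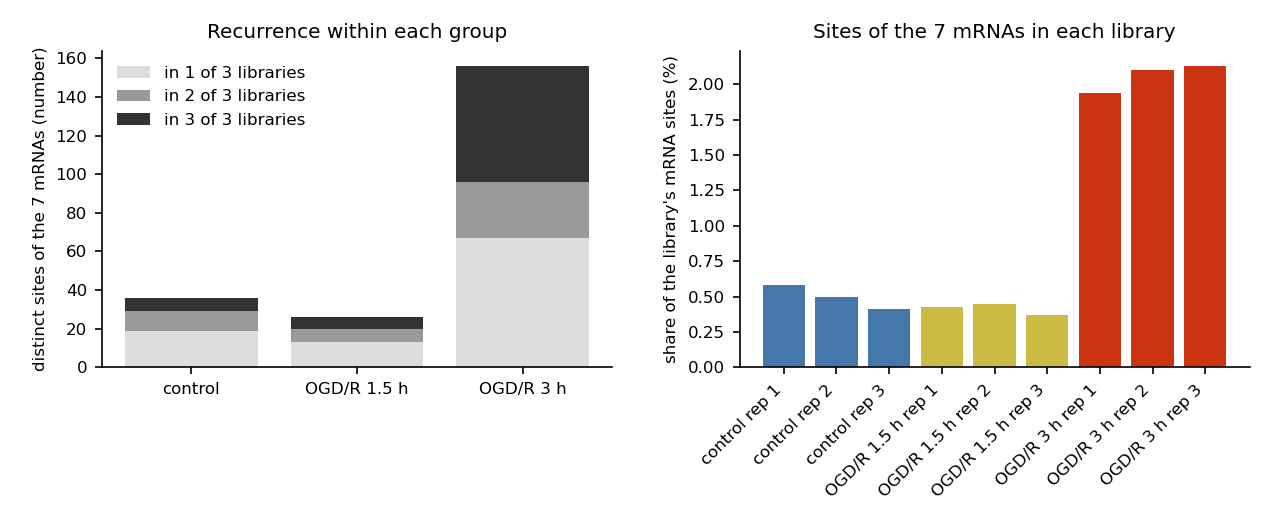
Left, number of distinct sites of the 7 mRNAs in each group, split by the number of the 3 libraries of the group that called them. Right, sites of the 7 mRNAs as a percentage of all mRNA sites of each library. The OGD/R 3 h group has 156 distinct sites, of which 60 are in all 3 libraries, and its libraries reach 1.94% to 2.13%.

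Few mucus sites were shared between groups, and the shares lay on either side of those of other mRNAs. The union of the libraries held 36 sites in control, 26 in OGD/R 1.5 h and 156 in OGD/R 3 h. Control and OGD/R 3 h shared 9 sites, which were 25% of the control sites and 5.77% of the OGD/R 3 h sites, while over all other mRNAs the shares were 20.5% and 17.2%. Control and OGD/R 1.5 h had 6 sites in common, which were 16.7% and 23.1% of their sites (27.3% and 26.5% over all other mRNAs). Both deprivation times had 9 in common, or 34.6% of the OGD/R 1.5 h and 5.77% of the OGD/R 3 h sites (21.5% and 18.7%). Of the 19 Fcgbp sites of control, 7 were also OGD/R 3 h sites, whereas of the 8 Muc2 sites 1 was. On Fcgbp, 88 of the 99 OGD/R 3 h sites were called in neither other group, 35 of the 88 in all 3 libraries. The share in neither other group is not given for other mRNAs. Of their OGD/R 3 h sites, 17.2% were also called in control and 18.7% in OGD/R 1.5 h, so most sites there were not shared either.

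The share of sites found in every library of a group was highest in OGD/R 3 h. There 60 of 156 sites (38.5%, 95% Wilson interval 31.2% to 46.3%) were called in all 3 libraries, against 7 of 36 in control (19.4%, 9.75% to 35%) and 6 of 26 in OGD/R 1.5 h (23.1%, 11% to 42.1%). The intervals cover counting error only, and those of control and OGD/R 3 h overlap. For all other mRNAs the shares were 17.8% in OGD/R 1.5 h, 26.5% in control and 30.6% in OGD/R 3 h. With control replicate 1 left out, so that a control site needed 2 libraries in place of 3, the difference between OGD/R 3 h and control went from 19 to 1.42 percentage points. Of the 60 sites in all 3 OGD/R 3 h libraries, 54 (90%) were in no control library, and for all mRNA sites this share was 80.5%. Of the 7 sites in all 3 control libraries, 3 (42.9%) were in no OGD/R 3 h library, against 75.0% of all mRNA sites.

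Only 4 mucus sites were called in all 6 libraries of control and OGD/R 3 h, all of them in Fcgbp. The site at chr7:28086689 had scores of 1000, 785 and 578 in control, against 1000, 692 and 604 after 1.5 h and 885, 578 and 677 after 3 h, so that the groups overlapped. At chr7:28085096 the scores were 219, 984 and 519 in control, against 186, 121 and 593 after 1.5 h and 319, 421 and 472 after 3 h, which overlap as well. The cytosine at chr7:28086672 was the exception with higher scores in every OGD/R 3 h library, at 784, 537 and 365 against 89, 340 and 204 in control and 74 to 106 in OGD/R 1.5 h. At chr7:28107172 in exon 16 the scores were lower, with 131, 63 and 60 in OGD/R 3 h against 192, 984 and 192 in control. Over all mRNA sites called in these 6 libraries, 10.7% had a higher and 15.4% a lower score in every OGD/R 3 h library.

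In exon 15 of Fcgbp 2 neighbouring cytosines were called in different groups. The first, at chr7:28106292, was called in all 3 control libraries, with scores of 480, 594 and 395, and in no OGD/R 3 h library. The second, at chr7:28106293, was called in all 3 OGD/R 3 h libraries, with scores of 536, 602 and 347, and in no control library. Neither cytosine was called in OGD/R 1.5 h. Both are in capitals.
Fcgbp chr7:28106292 and chr7:28106293: tgagtgcgggCCtgatggccag
Such pairs, with control and OGD/R 3 h compared, numbered 37 over all mRNA sites, and this was the 1 pair on the mucus mRNAs. The number of neighbouring cytosines that could form such a pair is not given, so no share is read from these counts. Of all mRNA sites in all 3 control libraries, 75.0% were in no OGD/R 3 h library. Of those in all 3 OGD/R 3 h libraries, 80.5% were in no control library. On either side of the site at chr7:28085096, which all 9 libraries called, lay 2 cytosines that differed between groups. That at chr7:28085092 was called in the 3 control libraries (253, 404 and 411) and in no other library, and that at chr7:28085107 in the 3 OGD/R 3 h libraries (531, 435 and 121) and in no other.

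**Figure D3:**
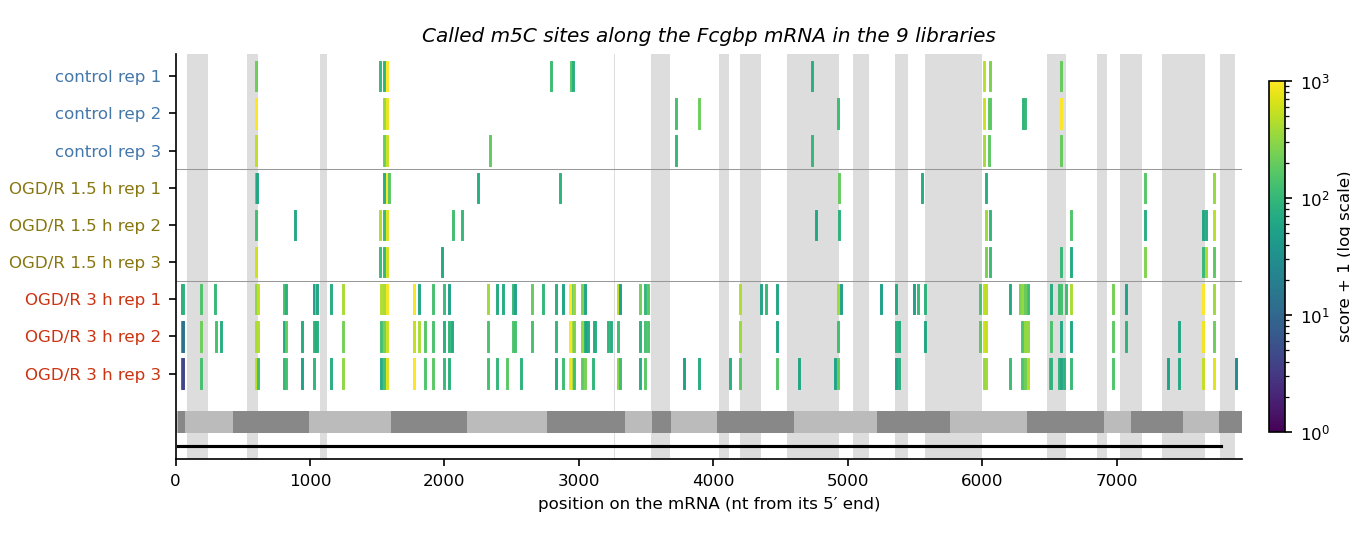
Sites along the Fcgbp mRNA (horizontal axis, nt from the 5′ end) in each of the 9 libraries (rows), coloured by score on a log scale. The boxes below are the 20 exons, the black line is the coding sequence, and grey bands mark stretches with a copy of at least 95% identity elsewhere in mm10. OGD/R 3 h sites are spread over the whole mRNA, while control and OGD/R 1.5 h sites are few and several stand at the same positions in both.

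Along Fcgbp the sites spread over the repeated exons. Its 10 exons of 544 to 617 nt (exons 4 to 8 and 12 to 16) hold 72.6% of its cytosines. They held 81 of the 99 OGD/R 3 h sites (81.8%), 17 of 19 in control (89.5%) and 19 of 23 in OGD/R 1.5 h (82.6%). In OGD/R 3 h all 10 of these exons and 18 of the 20 exons carried a site, against 8 exons in control and 11 in OGD/R 1.5 h. Exon 8 carried most, with 9, 14 and 10 sites in the OGD/R 3 h replicates and 17 in their union, or 99.4 per 1000 cytosines. The other long exons ranged from 21.6 in exon 13 to 59.5 in exon 15. In control the exon with most sites was exon 15, with 5 in the union.

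The repeated exons resemble each other only loosely. Over their 45 pairs, the identity of aligned bases was 53.8% to 65.2%, with a median of 59.1%. Of the called OGD/R 3 h cytosines that were aligned to a cytosine of another long exon, 13% had a called partner, while 5.43% of all these aligned cytosines were called. The pairs share exons, so that this is a description over 3960 aligned pairs of cytosines, 28 of which were called on both sides.

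Part of Fcgbp has close copies elsewhere. With C read as T, the stretch of 50 nt on either side of 719 of 2221 searched cytosines (32.4%) aligned elsewhere with at least 95% identity, in every case to the neighbouring gene 9530053A07Rik (NM_001164655.1, chr7:28129466-28164811, plus strand), a paralog 8602 nt downstream. This paralog carried no site in any library. Of the sites, such stretches held 22 of 97 in OGD/R 3 h (22.7%, 95% Wilson interval 15.5% to 32.0%), 5 of 19 in control (26.3%) and 6 of 23 in OGD/R 1.5 h (26.1%). At 99% identity the shares were 2 of 97 sites (2.06%, 0.567% to 7.21%) and 11.8% of the cytosines. The intervals cover counting error only. Sites and cytosines of 1 mRNA are not replicates, so these shares are a description and not a test. The longest run of Fcgbp without a site, 411 nt between mRNA positions 5571 and 5983, held 136 cytosines, of which 121 have a copy of at least 95% identity. How the authors treated reads that align to both genes is not given in the sources used here, and the part of these copies in the result was not tested. No cytosine of the other 6 mRNAs, of 3225 searched, had a copy at 90% identity or more.

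On Muc2 the sites lay on both sides of a long empty stretch. The mRNA had no site in any library over 1470 nt between positions 3275 and 4746 with 463 cytosines (22.5% of all). These positions and cytosines count only the part of the mRNA that is placed on mm10. The site with the highest score in OGD/R 3 h was at chr7:141746108 in exon 32, with scores of 79, 430 and 236 in OGD/R 3 h and no call elsewhere. The only site shared by control and OGD/R 3 h, at chr7:141700829 in exon 25, was called in control replicates 1 and 2 (91 and 107) and OGD/R 3 h replicate 2 (48). At chr7:141754475 in exon 48, within 100 nt of the stop codon, only OGD/R 3 h had calls, with scores of 91, 43 and 68. The single OGD/R 1.5 h site, at chr7:141746837 in exon 33, was called in replicates 1 and 3 with 124 and 136 and in no other group. In control the highest score was 171, at chr7:141754392 in exon 48, in replicate 1. These 5 sites lie in the following stretches, shown for the difference between groups.
Muc2 chr7:141746108: gtgcgtgttcCtgatgctgat
Muc2 chr7:141700829: accccccggaCgagtgtgaat
Muc2 chr7:141754475: tgtctgtgggCtcccacaggc
Muc2 chr7:141746837: cagatcaagaCcgtgaggatg
Muc2 chr7:141754392: cgaagtgttaCcctggaatgc
Recurrence on Muc2 was low. Of its 30 OGD/R 3 h sites 4 were called in all 3 libraries, against 44 of 99 on Fcgbp, and none of its 8 control sites was in all 3.

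**Figure D4:**
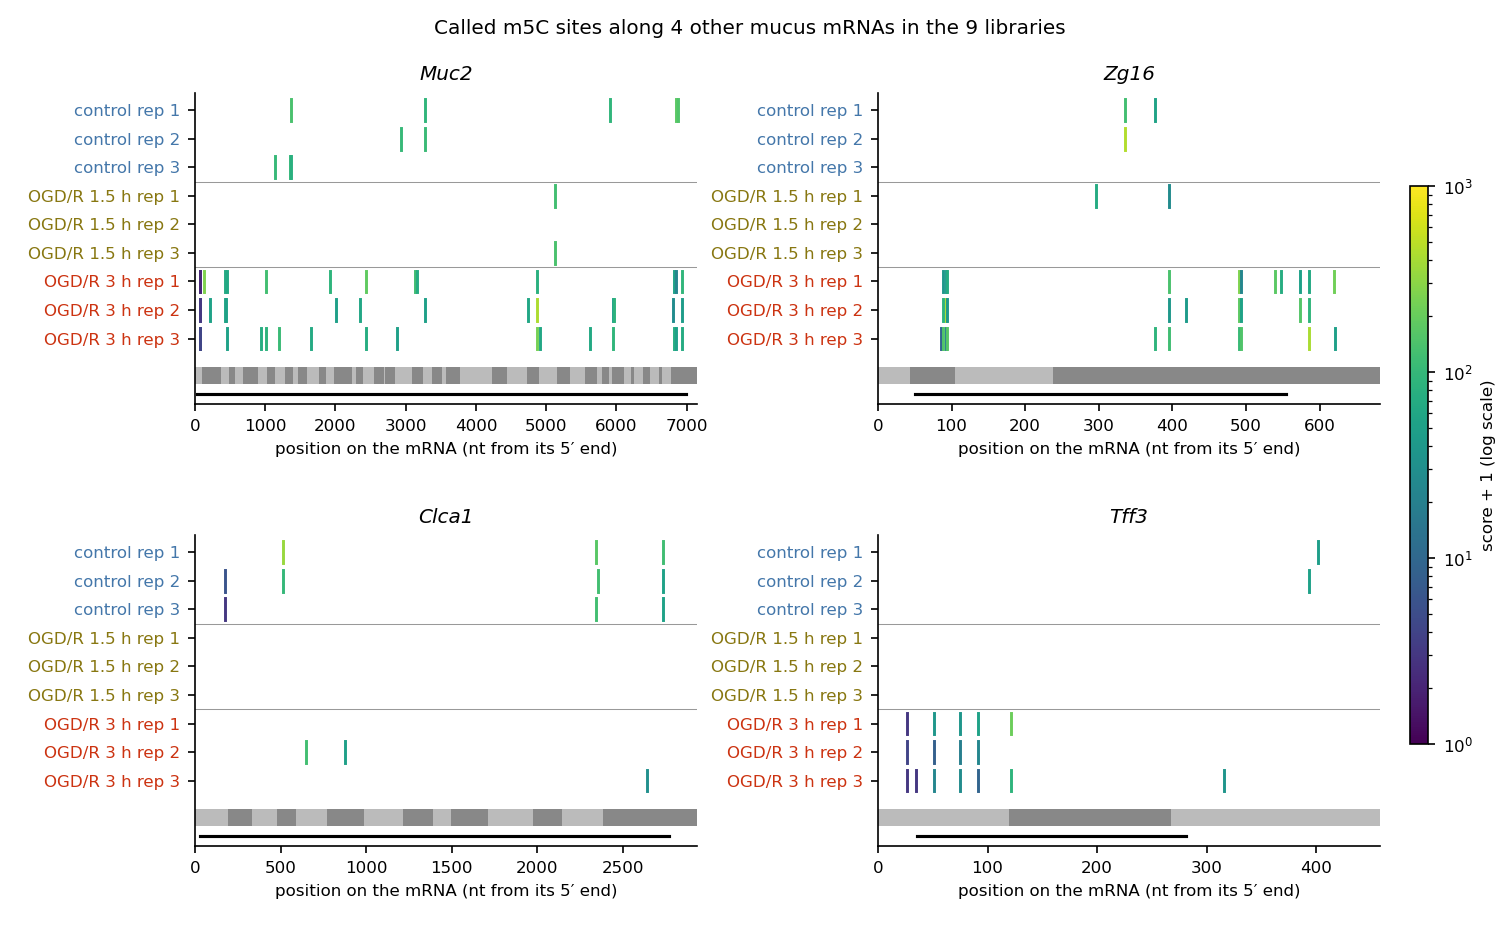
Sites along the mRNAs of Muc2, Zg16, Clca1 and Tff3 (horizontal axes, nt from the 5′ end) in each of the 9 libraries (rows), coloured by score on a log scale, with exons as boxes and the coding sequence as a black line. In OGD/R 3 h, 4 of 15 Zg16 sites and 6 of 7 Tff3 sites lie within 100 nt of the start codon, Muc2 has no site between positions 3275 and 4746, and Clca1 has no site in OGD/R 1.5 h.

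On the short mRNAs of Zg16 and Tff3 the windows around the start and stop codon hold a large part of the cytosines. In Zg16, 4 of 15 OGD/R 3 h sites (26.7%) lay within 100 nt of the start codon, all within mRNA positions 86 to 94 of exon 2, and 8 (53.3%) lay within 100 nt of the stop codon, where these windows hold 21.4% and 31.2% of its cytosines. In Tff3, 6 of 7 sites (85.7%) lay in the start window, which holds 27.8% of its cytosines. The Zg16 site at chr7:127050443 was called in 4 of the 9 libraries, more than any other Zg16 site, with scores of 136, 39 and 119 in OGD/R 3 h and 26 in OGD/R 1.5 h replicate 1. At chr7:127050347 the scores were 262, 174 and 107, and at chr7:127050252, in the 3′ UTR, they were 64, 91 and 421, with no call outside OGD/R 3 h at either.
Zg16 chr7:127050443: cggacaagggCcgctacctgc
Zg16 chr7:127050347: ggcgatctggCtctgccatag
Zg16 chr7:127050252: gtcaggggtgCtgtgtgtgta
In Tff3, 4 sites were called in all 3 OGD/R 3 h libraries and in no other library. All 4 lay in exon 1, and the 3 with the highest sums of scores are shown. Their scores were 52, 23 and 8 at chr17:31129521, 37, 18 and 27 at chr17:31129537 and 38, 7 and 23 at chr17:31129561.
Tff3 chr17:31129521: gctgggtcctCtgggatagct
Tff3 chr17:31129537: gttggtggtcCtggttgctgg
Tff3 chr17:31129561: gaccagagccCtctggctaat

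The control sites of Clca1 included 1 cytosine that recurred in all 3 libraries, at chr3:145004734 in exon 14, within 100 nt of the stop codon, with scores of 120, 52 and 52. At chr3:145024600 in exon 4 the scores were 341 and 99 in control replicates 1 and 2, and at chr3:145005918 in exon 13 they were 164 and 123 in control replicates 1 and 3. None of these 3 cytosines was called after deprivation. The Agr2 and Spink4 sites are shown with them, as the only sites of their mRNAs.
Clca1 chr3:145004734: gtggaagtggCtaggggaaat
Clca1 chr3:145024600: gggctcacttCcgatggggag
Clca1 chr3:145005918: gtgaatctgaCgtggacggct
Agr2 chr12:35995651: agacactctcCagaggttggg
Spink4 chr4:40931304: caatgctgagCtcagaggtgc

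Nearly all mucus sites lay in coding sequence. Of the 156 OGD/R 3 h sites, 147 were coding, 2 lay in a 5′ UTR and 7 in a 3′ UTR, and of the 36 control sites 34 were coding and 2 lay in a 3′ UTR. All 26 OGD/R 1.5 h sites were coding. Within 100 nt of a start codon lay 16 OGD/R 3 h sites, but none of control or OGD/R 1.5 h. These windows hold from 1.74% of the cytosines on Fcgbp to 38.3% on Spink4. With 36 control and 26 OGD/R 1.5 h sites in all, nothing is read from their absence there. On Fcgbp, whose coding cytosines fall to 28.1%, 27.5% and 44.4% on codon positions 1, 2 and 3, the 98 coding OGD/R 3 h sites fell to 34.7%, 26.5% and 38.8%.

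**Figure D5:**
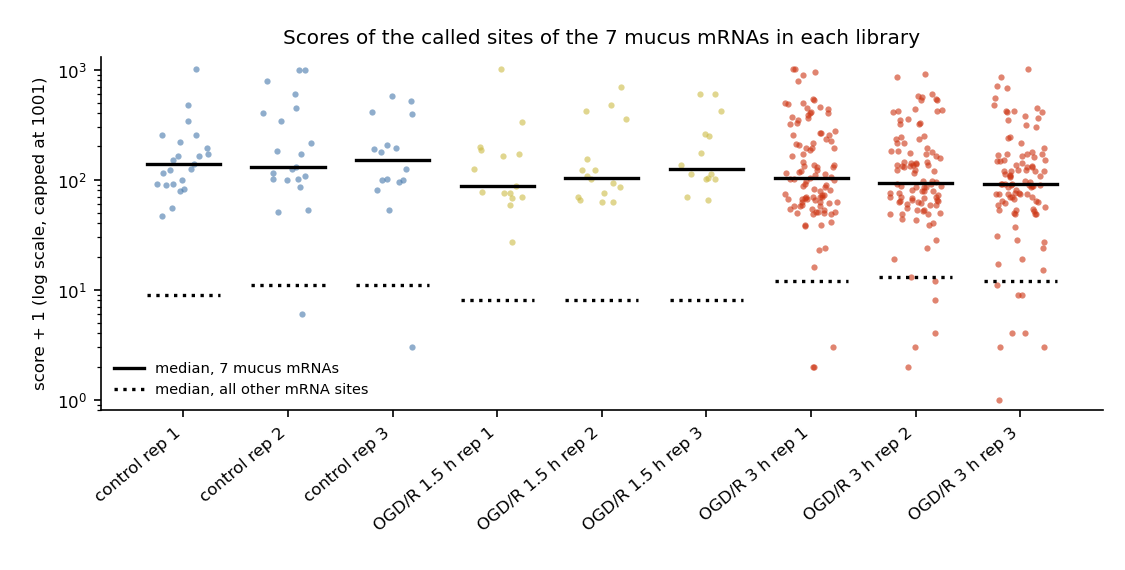
Scores of the sites of the 7 mRNAs in each library (points, vertical axis on a log scale after adding 1), with their median as a solid line and the median of all other mRNA sites as a dotted line. In every library the solid line lies above the dotted one, at 128 to 150 in control, 86.0 to 124 in OGD/R 1.5 h and 91.0 to 102 in OGD/R 3 h.

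Mucus sites had high scores in all groups. The score, which joins coverage and level and is capped at 1000, had a median of 128 to 150 in control libraries, 86.0 to 124 in OGD/R 1.5 h and 91.0 to 102 in OGD/R 3 h. All other mRNA sites had medians of 8 to 10, 7 and 11 to 12 in the same libraries. The OGD/R 3 h medians of mucus sites were below those of control without overlap, by 43.3 on average, while the medians of other mRNA sites were above those of control. Sites called in all 3 OGD/R 3 h libraries had a median score of 136, against 71.0 for those in 1 library. In control these medians were 395 over 7 sites and 100 over 19 sites.

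Scores under 10 made up 46.3% to 54.7% of the other mRNA sites of a library, but were rare on the mucus mRNAs. In OGD/R 3 h they numbered 14 of 305 site scores, on 10 cytosines of 5 mRNAs, and 12 of the 14 lay within 100 nt of a start codon. The other 2 were those of Agr2. Control had 2 such scores, both on 1 Clca1 cytosine, and OGD/R 1.5 h none.

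The mucus sites stood more apart from each other than those of other mRNAs. A neighbour at most 10 nt away was listed for 21.4% to 28% of the mucus sites in OGD/R 3 h, 8.70% to 19.0% in control and 0% to 13.3% in OGD/R 1.5 h. For the other mRNA sites these shares were 51.1% to 52.5%, 46.4% to 47.4% and 39.5% to 40.5%, without overlap with the mucus sites in any group.

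Many of the OGD/R 3 h sites were followed by T and G. This CTG triplet made up 39.2% to 41.7% of the mucus sites of OGD/R 3 h libraries, against 19.5% to 20.4% of their other mRNA sites and 14% of the 5612 cytosines of the 7 mRNAs. In control the share was 21.7% to 50% and in OGD/R 1.5 h 21.4% to 40%, on few sites. On Fcgbp 44 of 361 CTG cytosines (12.2%) were called in OGD/R 3 h and 55 of 1884 other cytosines (2.92%), a difference also seen in control, at 1.94% and 0.637%, and in OGD/R 1.5 h, at 2.22% and 0.796%. On Muc2 the shares in OGD/R 3 h were 4.46% and 1.01%. Cytosines followed by G, the CG context, were rare among the mucus sites of OGD/R 3 h, with 2.91% to 4% against 20.6% to 22.0% of other mRNA sites and 8.96% of the cytosines of the 7 mRNAs. In control they were 9.52% to 17.4% and in OGD/R 1.5 h 0% to 6.67% of the mucus sites. Sites and cytosines of 1 mRNA are not replicates, so these shares are given without a test.

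The genes whose numbers of sites over the 9 libraries were most like the sum over the mucus mRNAs had sites in OGD/R 3 h only. Of 1012 genes with at least 5 sites, 9 tied with a Pearson r of 0.9975 over the 9 libraries, and the first 5 by name were Anxa1, Cdc34, Hbb-bs, Hbb-bt and Ngp. Hbb-bs, a beta globin, had 25 sites in each OGD/R 3 h library and none in any other, and Hbb-bt, Anxa1, Cdc34 and Ngp had 6, 6, 5 and 5 in the same way. The libraries of a group share their source, so the 9 points stand for 3 groups.

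In OGD/R 3 h libraries the other mucins and trefoil factors summed to 16 to 22 sites, against 100 to 103 on the 7 mRNAs. The paralogs of the members summed to 4 to 5, and the other goblet cell genes to 15 to 18. Of 13 other mucins and trefoil factors, 2 had a site, both membrane mucins. Muc13 listed 8 to 15 sites in control, 4 to 8 in OGD/R 1.5 h and 10 to 11 in OGD/R 3 h, which overlaps control, and Muc3 2, 3 to 6 and 6 to 11. Of 9 annotated paralogs of the members 4 had a site. Of these 4, only Spink1 had more in every OGD/R 3 h library than in control, as had 18.2% of all genes. It had 2 sites in each OGD/R 3 h library and none elsewhere. Nothing is read from this share of 4 genes. Clca4b had 0 to 1, 0 to 1 and 1 to 3. Of 29 goblet cell regulators and other goblet cell genes 7 had a site. Klf4, a zinc finger factor of goblet cell differentiation, had 2 to 3 sites in control, 1 to 3 in OGD/R 1.5 h and 7 to 10 in OGD/R 3 h, and Slc12a2, an ion cotransporter, 0, 0 to 1 and 4 to 5. Nlrp6 had 1 to 2, 0 to 1 and 0 to 2. Of the 7 genes with a site 3 had more in every OGD/R 3 h library (18.2% of all genes) and 1 (18.8% of all genes) had fewer. This was Atoh1, the transcription factor of the secretory lineage, with 1 site in each control library and none elsewhere.

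In the list of protein folding and export in the secretory pathway, which all secreting cells use, 16 of 20 genes had a site. Of these 16, 8 had more in every OGD/R 3 h library than in any control library and none fewer, where 18.2% of all genes had more and 18.8% fewer. Calr, the calcium-binding chaperone calreticulin, had 1 site in every control library, 3 to 5 in OGD/R 1.5 h and 19 to 21 in OGD/R 3 h. Canx, its membrane-bound relative calnexin, had 21 to 22, 18 to 21 and 23 to 34. Hsp90b1, an HSP90 chaperone of the endoplasmic reticulum, had 4 to 13, 5 to 9 and 12 to 15, so that OGD/R 3 h overlapped control. The sum over the list was 45 to 48 sites in control, 46 to 48 in OGD/R 1.5 h and 87 to 98 in OGD/R 3 h, while all mRNA sites differed 1.24-fold between OGD/R 3 h and control.

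Markers of the cell types around goblet cells were counted in the same way. For enterocytes and general intestinal epithelium, 17 of 20 genes had a site, and the sum over the list was 75 to 87 in control, 40 to 47 in OGD/R 1.5 h and 100 to 116 in OGD/R 3 h, with 4 of the 17 genes higher and 3 lower in every OGD/R 3 h library. Over all genes these shares were 18.2% and 18.8%. Apoa4 had 19 to 24 sites in control and 13 to 17 in OGD/R 3 h, and Vil1, the villin of the brush border, 5 to 6 and 15 to 16. Apoa1, which overlapped, had 17 to 22 and 17 to 21. For Paneth cells, 7 of 11 annotated genes had a site and the sums were 13 to 18, 4 to 7 and 22 to 30. Lyz1, the Paneth cell lysozyme, had 4 to 10 sites in control, 0 to 1 in OGD/R 1.5 h and 11 to 16 in OGD/R 3 h. Itln1 had 3 to 5, 0 to 2 and 3 to 4, and Defa24 2 to 3, 1 to 2 and 3 to 4, which overlap control. Enteroendocrine and tuft cell genes had 0 to 2 sites per library in control and OGD/R 1.5 h and none in OGD/R 3 h, with 2 of 10 genes listed. All 18 neuronal genes, with Tubb3, Map2 and Rbfox3 among them, had no site in any library, and of 12 genes of astrocytes, oligodendrocytes and microglia only Aldh1l1 had, with 0 to 1 site per library. A gene without a site can be expressed, so these lists do not measure expression. The part of these cell types in the differences between groups was not tested.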

How the data were processed

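Sites were taken from the 9 bisulfite libraries, 3 from each group. The 9 mock libraries were not analysed here. Per the labels and the study's methods, RNA was depleted of rRNA, converted with the EZ RNA Methylation Kit and sequenced from stranded libraries. The authors trimmed reads with cutadapt 1.9.3 and mapped them to mm10 by meRanGh. Each library was called separately by meRanCall, keeping cytosines with a methylation level from 0.1 and a coverage from 10 reads. The submitters' processing notes also name CASAVA 1.8 and STAR. The deposited files list each site with a score of 0 to 1000, not normalized for depth. It mixes coverage with level, so that neither could be derived. Read depth is therefore unknown. Site totals are given beside the counts, but they are not a measure of depth and do not correct for it.

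Sites were assigned to exons of RefSeq mRNAs (GRCm38.p6) on their strand with Python 3.11.15, numpy 2.4.6 and samtools 1.23.1. All 25890 sites fell on a cytosine. Positions count from 1, those on an mRNA from its 5′ end. Copies were searched with blastn 2.17.0, as windows of 50 nt on either side of a cytosine with C read as T that aligned over at least 90 nt in mm10 or in an mRNA. Repeated exons, those of at least 500 nt, were aligned in pairs with Biopython 1.88. Intervals of shares (scipy 1.17.1) are 95% Wilson intervals. Figures were drawn with matplotlib 3.10.9. A gene counts as having more sites in a group where all its libraries lie above all those of the other group. This call and the copy search were tested on simulated data.

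No test between groups was run, for the reasons given with the results. The members and gene lists were chosen with earlier results of these data known. Named are the 7 members, at most 3 genes of a list by number of sites, the 5 genes most like the members, up to 3 sites of a member called in most libraries (ties by the sum of scores) and the site with the highest score of Fcgbp and Muc2 in each group. The repeated pattern, the long exons, the neighbouring cytosines, the Fcgbp sites at the score cap, the sites called in all 6 libraries and Atoh1 were chosen after their values were seen. The alternatives were a score of at least 10, sites in at least 2 or in all 3 libraries of a group, curated mRNAs only, no other site within 10 nt, sites outside copies, the share of mRNA sites, a log scale of the score, 90% and 99% identity, and each library left out in turn.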

Additional observations from a re-analysis of the deposited data

Results flagged for a closer look

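Muc2 stood out in its numbers of sites. Every OGD/R 1.5 h library listed fewer sites on it than any control library, with a mean difference of -2.67, and every OGD/R 3 h library more, with a mean difference of 11.7. The difference between the deprivation times was not tested, the comparisons share their control libraries, and counts of 0 to 5 sites stand behind the lower values. With sites called in at least 2 libraries of a group, OGD/R 1.5 h and control no longer separated.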

How the results depend on the processing

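Of 85 alternative values for the 7 main results, 59 counted as the same, 26 as moved and none as turned in direction. The share of Fcgbp sites in copies, with 10 of the 85, has no direction that could turn. Curated mRNAs only gave the same printed value for all 7 results. The share of mRNA sites and the log scale of the score have other units. They counted as the same where the groups separated or overlapped as in the main result. The other values were set against the spread between libraries or, for shares, the Wilson intervals. The excess of mucus sites per library in OGD/R 3 h over control, 81.7, was 77.7 with a score of at least 10, 65.7 with sites in at least 2 libraries of the group, 53.0 with sites in all 3, 59.3 without neighbours within 10 nt and 70.7 outside copies. Over OGD/R 1.5 h it was 86.7, and in the same order 82, 68.7, 54.0, 62.3 and 75.0. For Fcgbp alone it was 57.3, and 48.7 with sites in at least 2 libraries, 38 in all 3, 44.7 without neighbours and 46.3 outside copies. The difference of OGD/R 1.5 h from control, -5.00, was -1 with sites in all 3 libraries. The difference in median score, OGD/R 3 h minus control, of -43.3 was -54.3 with a score of at least 10, -84.7 with sites in at least 2 libraries, -267 in all 3, -22.7 without neighbours and -26.8 outside copies. The share of Fcgbp sites in copies, 22.7%, was 39.2% at 90% identity and 2.06% at 99%, since the limit sets what counts as a copy. The cause of the other changes was not tested, beyond the fewer sites that each setting leaves. With each library left out in turn, the 3 h excess was 79.7 to 83.2 over control and 86.0 to 87.5 over OGD/R 1.5 h, 55.8 to 58.8 for Fcgbp, -7.00 to -3.50 for OGD/R 1.5 h, -48.6 to -37.3 for the score and 19.8% to 24.4% for the copies. The difference in the share called in every library, 19.0 percentage points, ranged from 1.42 without control replicate 1 to 35.5 without OGD/R 3 h replicate 3, since a site then needs 2 libraries in place of 3. Clca1 against control and Agr2 lost their separation in OGD/R 3 h with a score of at least 10. No paired analysis was possible because the sample titles do not tie a replicate of 1 group to a replicate of another. The results also come from no test. Unknown depth and sites listed only above a minimum limit all values.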
